A study of Homo sapiens with 3 samples.

Results

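The genes described here make the machinery with which the endoplasmic reticulum imports, folds, and disposes of proteins, and they were followed in LNCaP cells after knockdown of 3 tRNA-derived RNAs. The set was a named list of 42 genes, matched by former or current gene symbol, out of 20287 genes named on the arrays. All 42 were found, with 59 probes, and 38 of them were among the 10144 genes taken as measured, that is with a mean signal over all 6 signal columns at or above the 50th percentile of genes. ERN1, ATF6B, ERO1B and SEC62 lay below that level. LNCaP is an established human prostate cancer line that responds to androgen. SHOT-RNAs are fragments of tRNAs that cells with sex hormone signalling produce by cleavage in the anticodon loop.

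Cells received an siRNA against the 5' fragment of tRNA LysCUU (5'-Lys KD, 20 nM), the 5' fragment of tRNA AspGUC (5'-Asp KD, 20 nM) or the 3' fragment of tRNA AspGUC (3'-Asp KD, 10 nM). Controls received an siRNA to Renilla luciferase (R-Luc KD), and cells were grown in serum-containing IMEM and harvested after 72 h. Total RNA of each knockdown and its control was hybridised together on 1 two-colour array, so there were 3 arrays and no replicate. No test was possible, and "higher" and "lower" describe these arrays only. The question is which mRNAs differ between knockdown and control cells. The arrays measured mRNA and give no check of the tRNA fragments.

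Newly made secretory and membrane proteins enter the endoplasmic reticulum through the Sec61 channel, fold with the help of chaperones and disulfide isomerases, and are sent back to the cytosol for proteasomal degradation when folding fails. The sensors ERN1 (IRE1), ATF6 and PERK follow the load of unfolded protein and, when it grows, raise transcription of many of these genes. Prostate luminal cells are secretory, and the XBP1 branch of this response is known to be used by androgen-dependent prostate cancer cells. Of the luminal prostate markers matched on the arrays, 7 of 7 (KLK2, KLK3, TMPRSS2, FOLH1, HOXB13, KRT8 and KRT18) were measured, whereas 0 of 8 markers of basal, blood, liver or endothelial cells were.

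The DNA element through which ATF6 and XBP1 act is printed here because it is what ties many of these genes into 1 response. The endoplasmic reticulum stress element (ERSE) was searched as CCAAT, 9 bases of any kind, and CCACG. The shorter ERSE-II was searched as ATTGG, 1 base, and CCACG. RefSeq windows (GRCh38.p14) from 250 bases before to 50 after the gene start were matched for 38 of the 42 genes, and both strands were read. ERSE stood in 5 of these 38 windows and in 27 of all 35116 windows (0.077%). ERSE-II stood in 3 of 38 and in 19 of 35116 (0.054%). The sequences are on the gene's strand, and capitals mark the fixed letters of the element, which read as their reverse complement where the element lies on the other strand.
XBP1 (chr22:28800591-28800633, minus strand): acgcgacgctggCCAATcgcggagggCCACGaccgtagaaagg
CALR (chr19:12938372-12938414, plus strand): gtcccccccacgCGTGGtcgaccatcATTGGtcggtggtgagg
CANX (chr5:179698766-179698808, plus strand): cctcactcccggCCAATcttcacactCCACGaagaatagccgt
CRELD2 (chr22:49918542-49918584, plus strand): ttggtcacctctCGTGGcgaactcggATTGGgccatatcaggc
HERPUD1 (chr16:56932013-56932047, plus strand): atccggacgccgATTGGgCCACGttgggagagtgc
HYOU1 (chr11:119057262-119057296, minus strand): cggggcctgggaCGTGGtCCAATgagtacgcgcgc
SDF2L1 (chr22:21642102-21642136, plus strand): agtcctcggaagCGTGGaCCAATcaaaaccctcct

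HYOU1 had 1 more ERSE-II farther from its start, and the remaining ERSE was that of ERO1B. The CCACG core alone, which the longer elements contain, was in 27 of 38 windows against 38.1% of all windows. The TGACG core of the UPRE and CRE elements was in 14 of 38 against 24.6%. A match is a description of the letters, not of a bound site, and the genes are listed for their known part in the stress response.

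The direction of each ratio has to be given before the values. The sample labels put every knockdown in Cy3 and every control in Cy5. The column names of the deposited signals agree for the 5'-Lys array but call the first column the control on the 5'-Asp and 3'-Asp arrays. The first column was the same dye throughout, since the log2 ratios of the 10 spike-in probes rose and fell together between arrays (the lowest Pearson r of a pair was 0.999). Values below are Cy3 over Cy5, the knockdown over the control by the dye labels, and values given in a row without a name run from 5'-Lys KD through 5'-Asp KD to 3'-Asp KD, with Cy3 before Cy5. The direction on the 5'-Asp and 3'-Asp arrays is not settled, and by the column names each sign there would turn. By the dye labels no array had the dyes exchanged between knockdown and control. Whether a gene reads differently in Cy3 and Cy5 whatever the sample was therefore not tested. A sign shared by all arrays is given as a description only. By the column names such a sign would read as opposite changes with 5'-Lys KD and with the Asp knockdowns. A gene that reads differently in Cy3 and Cy5 would give the same shared sign there, and this was not tested.

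Across the list, few genes departed from the control on any array. A gene was counted as higher or lower when its log2 ratio, centred on the median of all measured genes, was at least 1.5-fold from 0 (0.585 on the log2 scale). With 5'-Lys KD 1 of 38 measured members was lower, beside 6.94% of all measured genes, and 0 were higher, beside 4.49%. With 5'-Asp KD 2 of 38 were lower, beside 4.34% of all genes, and 0 were higher, beside 3.54%. With 3'-Asp KD 0 were lower, beside 2.6%, and 0 higher, beside 2.27%. By the column names the 5'-Asp array would have 2 members higher and 0 lower. These shares are near the background or below it. In RNA from whole cultures, a small change in every cell and a large one in some cells cannot be told apart. At least 2-fold away was 1 member, TXNDC15, lower with 5'-Asp KD, beside 0.522% of all genes, and 0 were higher there, beside 0.365%. TXNDC15 was among the lowest genes in earlier results of these data, so counts that include it are a description. Without it 1 of 37 members was at least 1.5-fold lower on that array and 0 were 2-fold lower, beside the same shares. With 5'-Lys KD 0 members were 2-fold higher or lower, beside 0.601% and 1.36% of all genes, and with 3'-Asp KD 0, beside 0.207% and 0.276%.

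The median log2 ratio of the 38 members was -0.02 with 5'-Lys KD, -0.01 with 5'-Asp KD and 0.02 with 3'-Asp KD, where all measured genes have 0 by construction. The middle of the members' distribution was no wider than that of all genes. With 5'-Lys KD the quartiles were -0.30 and 0.12 for the members and -0.25 and 0.23 for all genes. With 5'-Asp KD they were -0.14 and 0.13 against -0.20 and 0.20. With 3'-Asp KD they were -0.16 and 0.15 against -0.18 and 0.17. The Cy5 signal had a median SD over arrays of 0.12 over all measured genes on the log2 scale, and many of these ratios are of that size. This SD is the spread of a repeated control only by the dye labels. Differences between arrays that both columns share drop out of a ratio, so it is a scale for reading the ratios and not their error, for which a single array per knockdown gives no value.

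**Figure D1:**
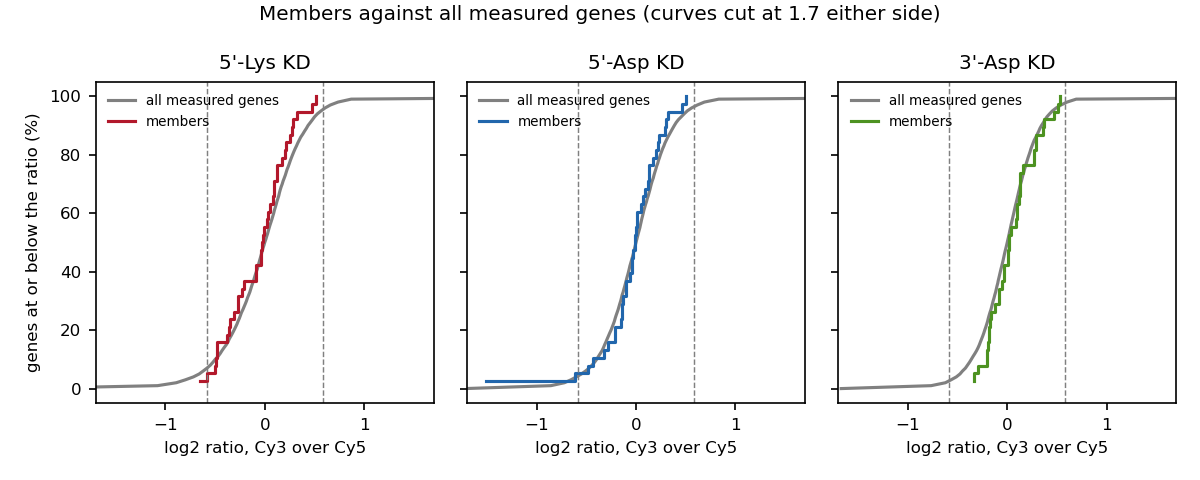
Cumulative share of genes (percent, y axis) at or below each log2 ratio of Cy3 over Cy5 (x axis) on each array, for the 38 measured members (coloured steps) and all 10144 measured genes (grey). The dashed lines mark 1.5-fold. The member curves follow the grey curves and end inside the dashed lines except for MANF on the 5'-Lys array and MANF and TXNDC15 on the 5'-Asp array.

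**Figure D2:**
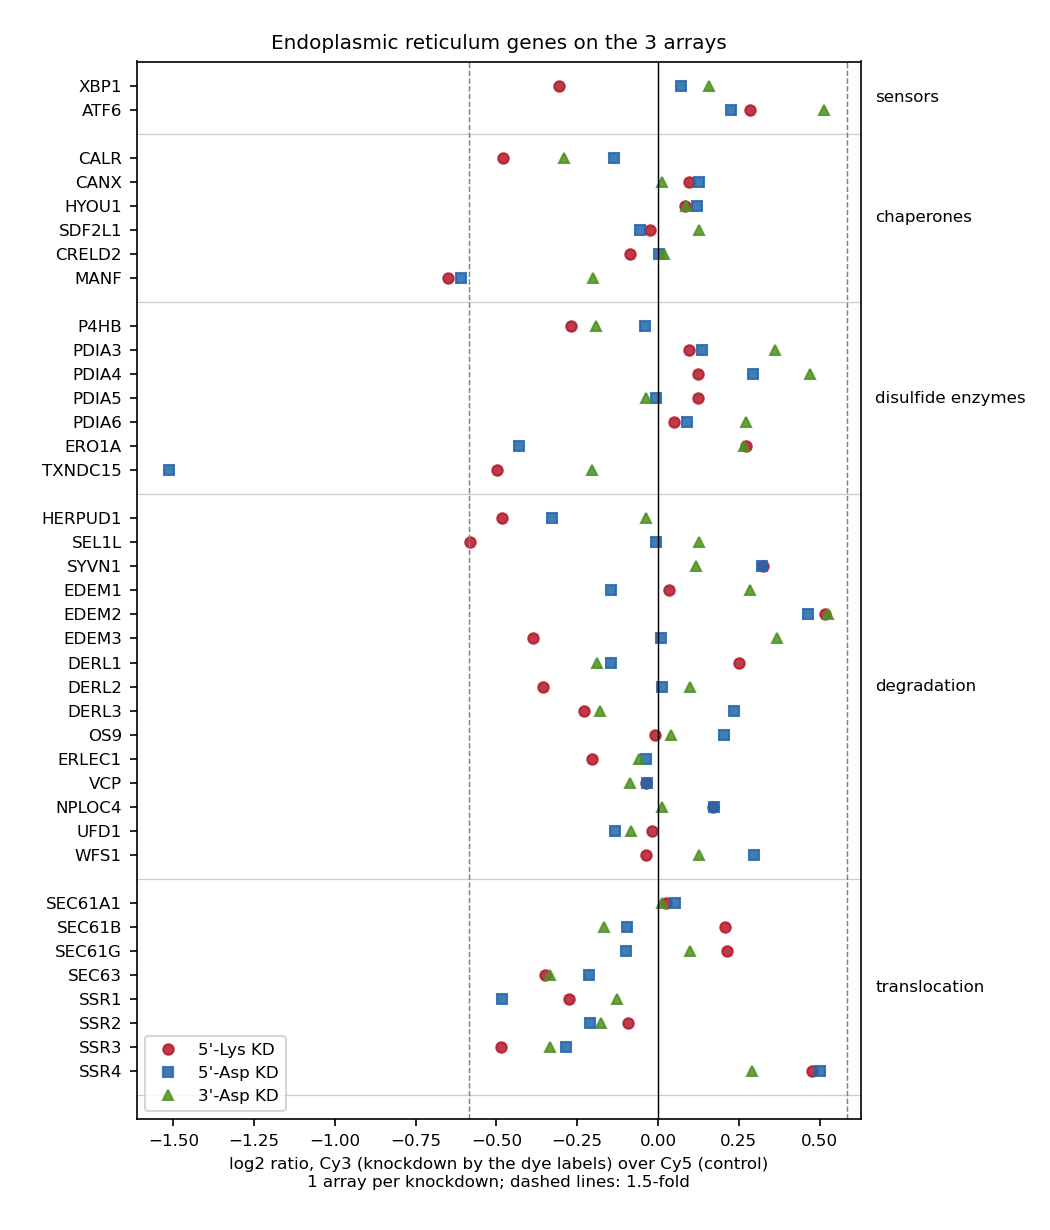
Log2 ratio of Cy3 over Cy5 (x axis) of each of the 38 measured members (y axis, by role), with 1 point per array. The dashed lines mark 1.5-fold. MANF passes the lower line on 2 arrays, TXNDC15 on the 5'-Asp array at -1.51, and no member passes the upper line.

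Among the sensors and transcription factors, 2 of 4 were measured. Neither was 1.5-fold away on any array, beside 2.27% to 6.94% of all genes per direction and array. XBP1 encodes the transcription factor that ERN1 activates by splicing its mRNA. Its signals were 22540 in Cy3 and 27604 in Cy5 on the 5'-Lys array, 21095 and 19838 on the 5'-Asp array, and 21865 and 19551 on the 3'-Asp array. The 3 Cy3 signals lay close together, and the highest of all 6 was the Cy5 signal of the 5'-Lys array. The log2 ratios were -0.31, 0.07 and 0.16, beside an SD of the Cy5 signal over arrays of 0.17. An array probe of this kind counts spliced and unspliced XBP1 mRNA together unless it is placed on the spliced stretch, and where the probe lies in the transcript is not known here.

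ATF6, a sensor that is cut from the membrane to become a transcription factor, had 1773 and 1441 on the 5'-Lys array, 1465 and 1238 on the 5'-Asp array, and 1621 and 1133 on the 3'-Asp array. Cy3 was above Cy5 on each array, with log2 ratios of 0.28, 0.22 and 0.51 and an SD of the Cy5 signal of 0.11. By the dye labels the ratio on the 3'-Asp array was the second highest of the 38 measured members there and still short of 1.5-fold, and by the column names it would be -0.51. ERN1, the kinase and nuclease that splices XBP1, was dim, with 24.4 and 23.0, 9.82 and 24.7, and 32.5 and 22.6 on the arrays in that order. Its Cy3 signal on the 5'-Asp array was the low one. ATF6B, the paralogue of ATF6, had 29.7 and 40.7, 28.8 and 25.2, and 78.6 and 36.0, with the high signal in Cy3 of the 3'-Asp array. The negative control probe read from 2.20 to 4.59 over the 6 columns, so these dim genes stood above it, but they were left out of the counts. Without the signal filter ERN1 would count as lower with 5'-Asp KD and ATF6B as higher with 3'-Asp KD.

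Of the 6 chaperones and luminal cofactors, MANF alone was 1.5-fold away from 0, beside 2.27% to 6.94% of all genes per direction and array. MANF is a small secreted and luminal protein that binds the chaperone BiP and is induced by stress. Its signals were 31902 in Cy3 and 49575 in Cy5 with 5'-Lys KD, 38856 and 58542 with 5'-Asp KD, and 40222 and 46132 with 3'-Asp KD. All 3 Cy3 signals lay below all 3 Cy5 signals. The ratio was 1.57-fold lower with 5'-Lys KD (-0.65), 1.53-fold lower with 5'-Asp KD (-0.61) and 1.15-fold lower with 3'-Asp KD (-0.20), and the Cy5 signal had an SD of 0.26 over arrays. Of all measured genes 5.18% had a lower ratio with 5'-Lys KD and 3.85% with 5'-Asp KD. With the mean of the 3 Cy5 signals as the control, the ratio with 5'-Asp KD was -0.41 and no longer 1.5-fold away.

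By the dye labels, MANF is the member that was lower on both arrays at 20 nM. For this reason the 250 bases before its start (chr3:51385041-51385290, plus strand, GRCh38.p14) are shown. They held 1 CCACG core, here in capitals as its reverse complement, and neither ERSE nor ERSE-II in the letters searched.
MANF: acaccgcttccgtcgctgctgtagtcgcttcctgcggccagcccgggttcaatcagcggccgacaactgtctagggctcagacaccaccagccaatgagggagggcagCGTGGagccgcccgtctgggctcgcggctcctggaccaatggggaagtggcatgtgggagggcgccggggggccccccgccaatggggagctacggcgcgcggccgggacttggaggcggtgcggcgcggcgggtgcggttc

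CALR, the lectin chaperone calreticulin that holds glycoproteins and calcium in the lumen, also had Cy3 below Cy5 on each array. Its signals were 73562 and 101398, 93997 and 102098, and 83432 and 101886 on the arrays in that order. The 3 Cy5 signals were nearly equal as deposited, but relative to the median of each array their SD was 0.13. The ratios were -0.48, -0.14 and -0.29. CANX, the membrane-bound relative calnexin, stayed between 0.01 and 0.13. HYOU1, a large Hsp70-like chaperone and nucleotide exchange factor, stayed between 0.08 and 0.12. CRELD2, a stress-induced luminal protein with isomerase activity, stayed between -0.09 and 0.02.

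SDF2L1, a BiP cofactor that is strongly induced by stress, shows how a level can move between arrays with no change in ratio. It had 46548 and 46892 on the 5'-Lys array, 61544 and 63216 on the 5'-Asp array, and 60152 and 54915 on the 3'-Asp array. Both columns of an array moved together, so the SD of the Cy5 signal was 0.34 while the ratios were -0.03, -0.06 and 0.13. Of the 8 members with ERSE or ERSE-II, 7 were measured and 0 of these were 1.5-fold away from 0 on any array. With from 2.27% to 6.94% of all genes past the threshold per direction and array, 0 of 7 says nothing particular of these genes. Those with the most negative ratio on the 5'-Lys array were HERPUD1, CALR and XBP1.

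The disulfide enzymes included the member with the most extreme ratio of the list, TXNDC15, a membrane protein with a thioredoxin domain. It was among the lowest genes in earlier results of these data, so its ratio is given as a description. Its signals were 198 and 277 on the 5'-Lys array, 85.4 and 241 on the 5'-Asp array, and 198 and 228 on the 3'-Asp array. The Cy3 signal of the 5'-Asp array stood far below the other 5 signals, which spanned 198 to 277. By the dye labels the ratio on that array was 2.85-fold lower (-1.51), which made TXNDC15 the 1 member at least 2-fold away. It was the second lowest of all 10144 genes. The -1.51 would be 1.51 by the column names, and with normexp background correction the ratio was -1.14. With 5'-Lys KD the log2 ratio was -0.50 and with 3'-Asp KD -0.20, with a Cy5 SD of 0.08. The gene rests on 1 probe. Without it, 1 of 37 members was lower on the 5'-Asp array and the median there was -0.01.

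P4HB, the founding protein disulfide isomerase, had log2 ratios of -0.27, -0.04 and -0.19 in this order, and its 2 probes lay within 0.10 of each other on each. PDIA3 (ERp57), which works on glycoproteins held by calnexin and calreticulin, had 0.10, 0.14 and 0.36. PDIA4 (ERp72) had 0.12, 0.29 and 0.47, with 5894 over 4745 and 5856 over 4220 on the Asp arrays. Cy3 was the higher signal for both isomerases on every array, by less than 1.5-fold. This order turned for PDIA4 with 5'-Lys KD against the mean of the Cy5 signals (-0.06) and for PDIA3 with 5'-Asp KD by its brightest probe (-0.01). PDIA5 stayed between -0.04 and 0.12.

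PDIA6, the isomerase that restrains ERN1 signalling, had a mean ratio near 0 only because its 2 probes went apart. The brighter probe had -0.68, -0.55 and -0.32 on the arrays in that order, and the dimmer probe had 0.78, 0.73 and 0.86. The mean of the pair was 0.05, 0.09 and 0.27, so the gene's ratio is uncertain. It was the 1 measured member whose probes differed by more than 1 on the log2 scale. By the brightest probe alone it would count as lower with 5'-Lys KD.

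ERO1A, the oxidase that recharges protein disulfide isomerase, had 968 and 792 on the 5'-Lys array, 836 and 1113 on the 5'-Asp array, and 908 and 753 on the 3'-Asp array. The Cy3 signals were alike, and the 5'-Asp array stood out by its high Cy5 signal. The log2 ratios were 0.27, -0.43 and 0.27 with a Cy5 SD of 0.40, the widest of the list. Its relative ERO1B was dim, with signals from 12.6 to 23.8.

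**Figure D3:**
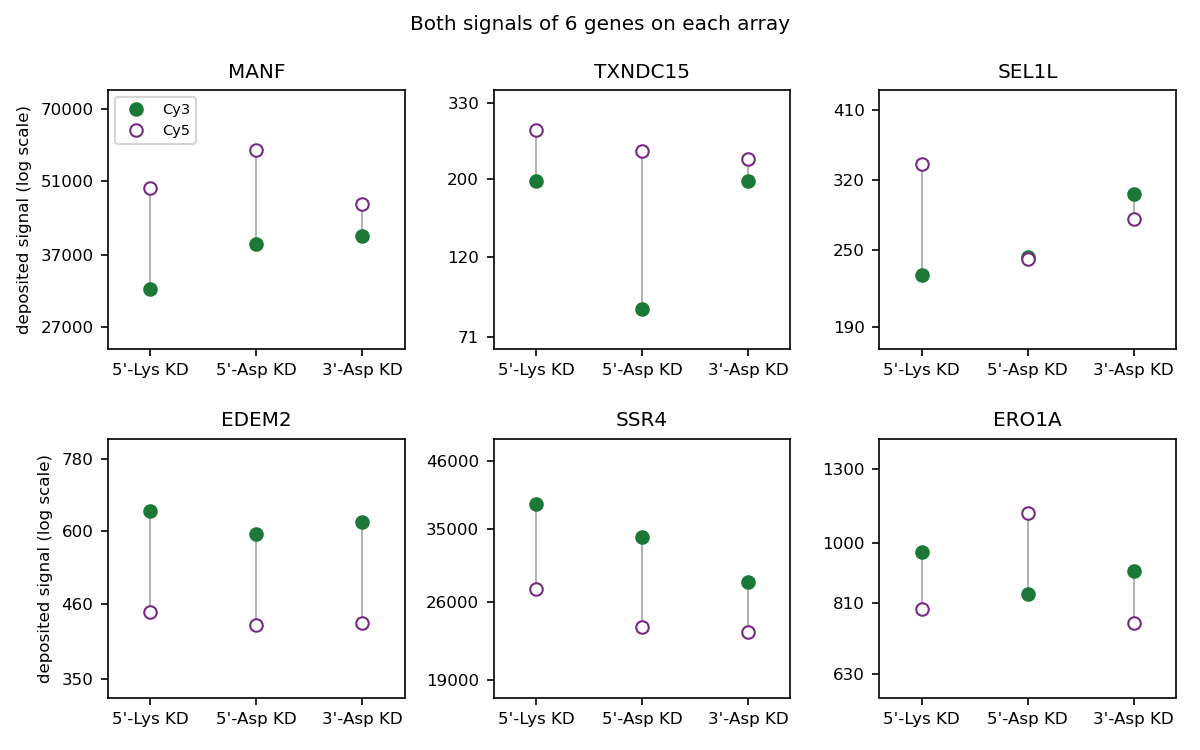
Deposited signals (y axis, log scale) in Cy3 (filled) and Cy5 (open) on each of the 3 arrays (x axis) for MANF, TXNDC15, SEL1L, EDEM2, SSR4 and ERO1A. Cy3 lies below Cy5 for MANF and TXNDC15 and above it for EDEM2 and SSR4 on every array, while for ERO1A the 5'-Asp array differs by its Cy5 signal of 1113.

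The degradation genes, with 15 of 15 measured, had 0 members 1.5-fold away from 0 on any array. Beside this stood 2.27% to 6.94% of all genes per direction and array. SEL1L, the scaffold of the ubiquitin ligase complex that clears misfolded proteins, came closest with 5'-Lys KD. It had 229 and 339 on the 5'-Lys array, 244 and 242 on the 5'-Asp array, and 305 and 279 on the 3'-Asp array. The 2 signals were farthest apart on the 5'-Lys array, with log2 ratios of -0.58, -0.01 and 0.13 and a Cy5 SD of 0.12. Its 3 probes on that array, from bright to dim, had -0.63, -0.28 and -0.84, the last with signals of only 44 and 78. SEL1L passed the threshold there when centred on all named genes (-0.66), without the signal filter (-0.66) and by its brightest probe (-0.64). It was within 1.5-fold with within-array loess (-0.57), with normexp background correction (-0.45) and against the mean of the Cy5 signals (-0.51). SYVN1 (HRD1), the ligase that SEL1L holds, had 0.32, 0.32 and 0.12, the other direction on the 5'-Lys array.

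HERPUD1, a stress-induced membrane protein that supports the same ligase, had 17301 and 23924 with 5'-Lys KD, 19211 and 23789 with 5'-Asp KD, and 21260 and 21743 with 3'-Asp KD. The ratios were -0.48, -0.33 and -0.04, so the 2 signals were nearly equal on the 3'-Asp array. The Cy5 SD was 0.13.

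The 3 EDEM genes encode mannosidase-related proteins that mark glycoproteins for disposal, and they differed among themselves. EDEM2 had 645 and 446, 594 and 425, and 619 and 429 on the arrays in that order. All Cy3 signals were above all Cy5 signals, and the ratios of 0.52, 0.47 and 0.53 were, by the dye labels, the highest or second highest of the 38 measured members on each array. By the column names those of the Asp arrays would be -0.47 and -0.53. The Cy5 SD was 0.09, but the ratio stayed below 1.5-fold. EDEM1 had 0.03, -0.15 and 0.29. EDEM3 had -0.39, 0.01 and 0.37, and its brightest probe had -0.64, past the threshold, with 5'-Lys KD and 0.17 with 3'-Asp KD.

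The derlins are membrane proteins of the exit channel. DERL1 had 0.25, -0.15 and -0.19, and DERL2 had -0.36, 0.01 and 0.10. DERL3 rested on a bright and a dim probe that disagreed on the 5'-Lys array (0.22 and -0.68) and on the 3'-Asp array (0.24 and -0.60). Its mean ratios were -0.23, 0.24 and -0.18, and those of the bright probe alone 0.22, 0.28 and 0.24. No derlin was 1.5-fold away.

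The lectins OS9 and ERLEC1, which hand trimmed glycoproteins to the ligase, stayed between -0.21 and 0.21 on all arrays. VCP (p97), the ATPase that pulls substrates into the cytosol, was the steadiest of its group with 52207 and 53043, 53293 and 53824, and 51013 and 54048. Its log2 ratios were -0.04, -0.03 and -0.09. The VCP cofactors UFD1 and NPLOC4 stayed between -0.13 and 0.17. WFS1, the Wolfram syndrome protein that also restrains ATF6, had -0.04, 0.30 and 0.13.

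**Figure D4:**
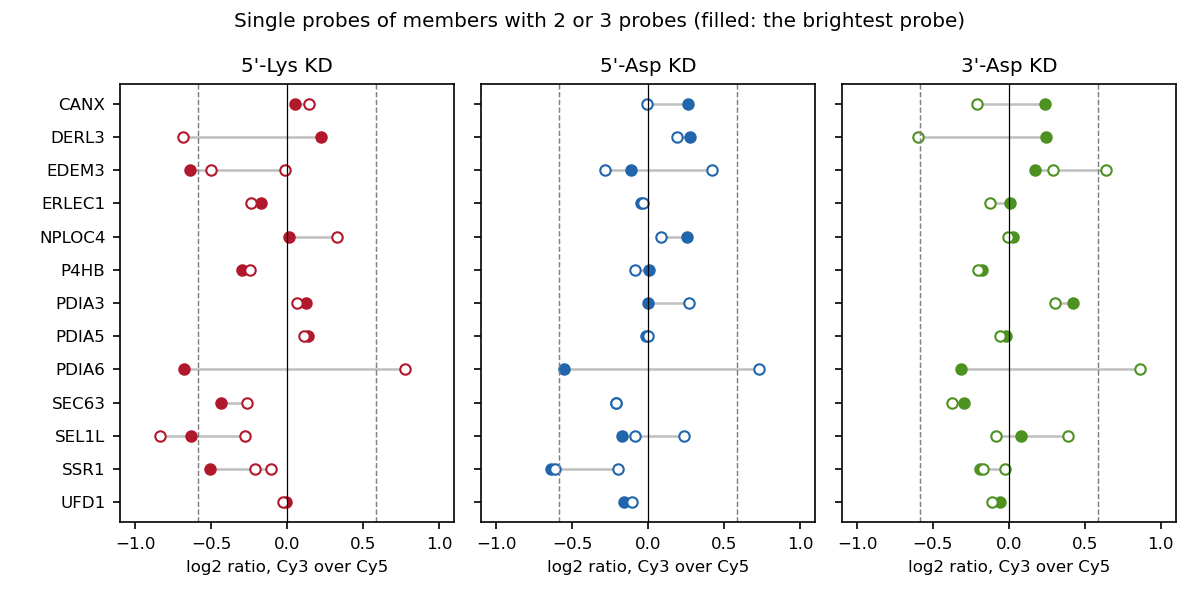
Log2 ratio of Cy3 over Cy5 (x axis) of every probe of the 13 measured members with 2 or 3 probes (y axis) on each array, with the brightest probe filled. The probes of PDIA6 lie on opposite sides of 0 on all 3 arrays, while those of ERLEC1, P4HB, PDIA5 and UFD1 lie close together.

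The translocation genes, with 8 of 9 measured, had 0 members 1.5-fold away from 0. Beside this stood 2.27% to 6.94% of all genes per direction and array. SEC61A1, the channel itself, stayed between 0.01 and 0.05. Its small subunits SEC61B and SEC61G had 0.21 and 0.21 with 5'-Lys KD, -0.10 and -0.10 with 5'-Asp KD, and -0.17 and 0.10 with 3'-Asp KD. SEC63, which recruits BiP to the channel, had 763 and 961, 545 and 623, and 580 and 730. Cy3 was the lower signal on each array, with ratios of -0.35, -0.21 and -0.34, and both probes were below 0. SEC62, its partner, was dim, with signals from 26.1 to 42.9.

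The 4 subunits of the translocon-associated protein complex, SSR1 to SSR4, which assists entry of certain chains, did not lie together. SSR4 had 38611 and 27455 on the 5'-Lys array, 33787 and 23563 on the 5'-Asp array, and 28255 and 23044 on the 3'-Asp array. Each array had Cy3 above Cy5, with log2 ratios of 0.48, 0.50 and 0.29 and a Cy5 SD of 0.05. SSR3 had 323 and 448, 386 and 465, and 299 and 375, with Cy3 the lower signal each time and ratios of -0.49, -0.28 and -0.33. SSR1 had -0.27, -0.48 and -0.13, and its 3 probes were below 0 on every array. SSR2 had -0.09, -0.21 and -0.18. SSR4 was thus above 0 and its 3 partners below 0 on each of the 3 arrays, all by less than 1.5-fold. By the dye labels the dyes were not exchanged on any array, so whether these shared signs come from the dyes was not tested. By the column names all 4 signs would turn on the Asp arrays, with SSR4 at -0.50 and -0.29 and SSR3 at 0.28 and 0.33. With the dye labels' direction, the signs were the same under the 8 other scalings, filters and probe rules tried. These are not 8 separate checks. The deposited folds are the same ratio times a constant, and leaving out the filter gave the same values as centring on all named genes. Against the mean of the Cy5 signals SSR3 reached -0.59 with 5'-Lys KD but only -0.03 with 5'-Asp KD. SSR1 reached -0.65 with 5'-Asp KD by its brightest probe.

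The knockdowns 5'-Lys and 5'-Asp were given at equal dose, and their ratios can be set against each other, with the direction of the second open. The log2 ratio with 5'-Lys KD minus that with 5'-Asp KD had a median of -0.03 over the 38 members and 0.01 over all genes. At least 1.5-fold higher with 5'-Lys KD were 2 of 38 members, beside 3.15% of all genes, and lower were 0, beside 5.12%. The 2 were TXNDC15 (1.01) and ERO1A (0.70), and SEL1L was the lowest at -0.58. ERO1A was no longer past the threshold with the mean of the 3 Cy5 signals as the control. With the 5'-Asp sign turned, as the column names have it and as was tried after seeing the data, 3 of 38 members were higher, beside 14.9% of all genes, and 7 lower, beside 16.9%. TXNDC15 would then be the lowest (-2.01), followed by MANF (-1.26) and HERPUD1 (-0.81), while EDEM2 and SSR4 would stand highest at 0.98. Neither the count nor the direction for TXNDC15 is therefore settled. Whether 1 control RNA served both arrays, so that the error of the control is shared, is not stated in the labels.

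Among other genes tied to the endoplasmic reticulum and its stress response, outside the list, few departed as well. Of 115 such genes 104 were measured. With 5'-Lys KD 7 were at least 1.5-fold lower and 4 higher, beside the 6.94% and 4.49% of all genes. With 5'-Asp KD 2 were lower, beside 4.34% of all genes, and 2 higher, beside 3.54%. With 3'-Asp KD 0 were lower, beside 2.6%, and 2 higher, beside 2.27%, and by the column names these would be 2 lower and 0 higher. The master chaperone gene HSPA5 (BiP) had -0.20, 0.06 and -0.31, and HSP90B1 (GRP94) had -0.29, -0.14 and 0.16. DNAJB9, a BiP co-chaperone and XBP1 target, had -0.07, -0.19 and 0.15. DDIT3 (CHOP), a transcription factor of the PERK branch, had -0.43, -0.02 and -0.24. None of these 4 genes, chosen as readouts of the stress response, was 1.5-fold away on any array. Only 2.27% to 6.94% of all measured genes were that far away per direction and array. A count of 0 of 4 therefore says nothing particular of the stress response.

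The genes outside the list that were lower with 5'-Lys KD included DNAJC10 (-0.83), a disulfide reductase that prepares proteins for disposal, and HSPA13 (-0.81), an Hsp70-like protein. UGGT1 (-0.67), the glucosyltransferase that senses incomplete folding, was lower there and had 0.03 and 0.07 on the 5'-Asp and 3'-Asp arrays. UBAC2 (-0.72), FAF1 (-0.64), TMED10 (-0.61) and TMX3 (-0.59) were the others. On the 5'-Asp array SIL1 (-0.98), a nucleotide exchange factor of BiP, and TMX4 (-0.69), a membrane thioredoxin, were lower. SIL1 had a Cy5 SD of 0.36.

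On the high side OST4, a very small subunit of the oligosaccharyltransferase, had 30672 and 17073 with 5'-Lys KD, 23170 and 12750 with 5'-Asp KD, and 21610 and 14069 with 3'-Asp KD. By the dye labels it was higher on all 3 arrays, with ratios of 0.83, 0.84 and 0.62, the last of which was 0.54 and within 1.5-fold when centred on all named genes. RPN1, another subunit, had 0.63, 0.08 and 0.57, and UBXN6, a VCP cofactor, had 0.59 with 5'-Lys KD. TRAM1, a translocation aid, had 1.26, 1.11 and 0.76, but the SD between its 2 probes was 1.86, 1.55 and 1.42.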

How the data were processed

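Two-colour arrays were run and read by a service company, per the labels' protocols. The deposited tables hold 2 intensity columns per array for 34183 probes. The authors call them raw, per the file headers, but all values were positive with near-equal medians in both columns (70.7 to 95.0), so they look background-corrected and dye-balanced. The extraction software is not stated in the labels. The deposited series values, treated as a score, were signed folds of the first over the second column times 1 constant per array.

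Of the probes 28048 had 1 symbol in the platform annotation of 2015, 0 several and 6135 none. Symbols were made current through RefSeq accessions (25515) or unique former names (339), 2179 were current and 15 kept. Log2 intensities of a gene's probes were averaged, and ratios were centred on the median of the 10144 genes at or above the 50th percentile of mean signal (7.04). There was 1 array per knockdown, so no p-value was computed, and the number of arrays limits the precision. Members at least 1.5-fold from 0 on any array, and the 2 highest and 2 lowest members per array, were named with signals. The members, lists and rules were chosen with earlier results of these data known. The steps were tested on simulated data.

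Alternatives were within-array loess and normexp (offset 50) in limma 3.58.1 under R 4.3.3, the deposited folds, the mean Cy5 signal after Aquantile scaling as control, no filter, the 75th percentile, the brightest probe, centring on all named genes, the column-name direction, the list without TXNDC15 and a 2-fold threshold. For 5'-Lys KD minus 5'-Asp KD they were added after the data were seen. The rest used pandas 2.3.3 and numpy 2.4.6 in Python 3.11.15. Protein sequences were not used here.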

Additional observations from a re-analysis of the deposited data

How the results depend on the processing

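The number of members at least 1.5-fold lower on the 5'-Lys array, 1 in the report, was 2 with the mean Cy5 signal of all arrays as the control (MANF and SSR3, beside 6.75% of all genes), without the signal filter (MANF and SEL1L, 11.8%) and when centred on all named genes (MANF and SEL1L, 9.81%). It was 4 by the brightest probe (MANF, PDIA6, SEL1L and EDEM3, 7.29%) and 0 at 2-fold (1.36%). On the 5'-Asp array the 2 lower members became 1 with the mean Cy5 signal (4.27% of all genes), with the filter at the 75th percentile (3.45%), without TXNDC15 (4.34%) and at 2-fold (0.522%). By the column names that array had 2 higher (4.34%) and 0 lower (3.54%), with MANF at 0.61 and TXNDC15 at 1.51. On the 3'-Asp array 1 member was higher without the filter (18.1%), ATF6B, a dim gene. The alternatives for 5'-Lys KD minus 5'-Asp KD were all chosen after seeing the data. There the column names gave 3 members higher and 7 lower in place of 2 and 0, beside 14.9% and 16.9% of all genes. The mean Cy5 signal gave 1 higher (TXNDC15) and 1 lower (DERL2), beside 5.00% and 5.72% of all genes. Without the filter 1 was lower (ATF6B, 10.3%), at the 75th percentile 0 were higher (2.01%), and without TXNDC15 (3.15%) or at 2-fold (0.591%) 1 was higher. The other 99 values of member counts and list medians stayed within 1.5 times the count or within 0.12 of the median. Some of them could not move, such as those with the deposited folds. This range also took in 3 lower members in place of 2 on the 5'-Asp array, by the brightest probe (4.5% of all genes) and without the filter (9.2%). Leaving the column names aside, the MANF ratio ranged from -0.78 to -0.65 with 5'-Lys KD and from -0.69 to -0.41 with 5'-Asp KD, and that of TXNDC15 with 5'-Asp KD from -1.60 to -1.14. The cause of these shifts was not tested. No paired analysis was possible because each knockdown has 1 array. Signal over background limits ERN1, ATF6B, ERO1B and SEC62, and 25 of 38 measured members rest on 1 probe.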
